A study of Mus musculus with 21 samples.

Results

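The Sprouty genes (Spry1, Spry2, Spry3 and Spry4) and the Spred genes (Spred1, Spred2 and Spred3) encode feedback inhibitors of RAS signalling. The 7 genes were taken by symbol from the table of normalized counts, which lists 34478 genes, and each of them passed the filter on low values that left 19300 genes for testing. In cells treated with the MEK inhibitor trametinib until they were resistant, 4 of the 7 genes fell (Spry4, Spry2, Spred2 and Spred1), and these 4 rose again after 12 passages without the drug, together with Spred3. Spry4 moved furthest, from between 619 and 1378 normalized counts in parental cells to between 0 and 7.12 in resistant cells. In no gene of the family did cells after 12 drug-free passages pass the test against parental cells.

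Growth factor receptors activate RAS, which passes the signal through RAF and MEK to ERK. Active ERK enters the nucleus and switches on genes that include those of its own inhibitors, so that Sprouty and Spred RNA usually follows the activity of the pathway and its loss accompanies a block of MEK. Sprouty proteins act between the receptor and RAF, among other ways by holding the adaptor GRB2, and are joined to membranes by a cysteine-rich C-terminal domain. Spred proteins share that domain, carry an EVH1 domain at the other end, and bring the RAS GTPase-activating protein neurofibromin to the membrane.

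The RNA came from 6 primary murine cell lines of pancreatic ductal adenocarcinoma (PDAC), numbered #3, #4, #6, #7, #9 and #10, each from a tumour of a mouse whose alleles included Ptf1awt/Cre and Trp53loxP/loxP. In these mice a Cre driven from the pancreatic gene Ptf1a deletes Trp53, and cells of every state share this background. Parental cells had never met the drug (n = 6 lines), resistant cells were grown in trametinib at the high multiple of their IC50 to which they had been adapted (n = 6 lines), and P5 (n = 3 lines, #3, #7 and #9) and P12 cells (n = 6 lines) are batches of the resistant cells named for 5 and 12 passages in drug-free medium. There was 1 library for each line and state, and lines served as replicates. The sample descriptions of P5 of lines #7 and #9 give 12 drug-free passages, against their titles and group labels. Resistant cells were kept in the drug, so the resistant state and the presence of trametinib cannot be told apart. The study describes the resistant cells of the lines it examined for this as grown out from a single clone, so a resistant population may represent few of the parental cells. Estimated depth lay between 24.1 and 42.7 M reads per sample (M for mega), and 3 reads corresponded to 2.31 to 4.07 normalized counts, taken here as the floor of detection, which covers counting error only.

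In GENCODE M21 (GRCm38), Spry1 lies at chr3:37639947-37644598 on the plus strand and Spry2 at chr14:105891947-105896819 on the minus strand. Spred1 lies at chr2:117121374-117182279 and Spred2 at chr11:19924375-20024026, both on the plus strand, and Spred3 at chr7:29158829-29170411 on the minus strand. Upstream sequence is shown for 3 of the genes that changed between parental and resistant cells. Spry4, which also changed, was left out of the search for upstream sequence, and no upstream sequence was found for Spry3. Windows of 250 bases before the RefSeq start (GRCm38.p6) were found for 5 of the 7 genes. They are the stretches in which binding letters of factors downstream of ERK were searched for: the ETS core CGGAA on either strand (TTCCG on the other), the AP-1 site TGANTCA, and the CArG box of serum response factor. Capitals mark an ETS core, sequences are given 5′ to 3′ on the strand of the gene, and the Spred2 window is printed up to the start of the GENCODE gene model, which leaves 183 bases.
Spred1 (chr2:117120821-117121070, plus strand): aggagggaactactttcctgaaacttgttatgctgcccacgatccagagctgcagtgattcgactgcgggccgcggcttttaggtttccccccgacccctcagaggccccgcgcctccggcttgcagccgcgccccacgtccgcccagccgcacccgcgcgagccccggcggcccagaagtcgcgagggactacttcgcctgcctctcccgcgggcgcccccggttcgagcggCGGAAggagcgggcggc
Spred2 (chr11:19924192-19924374, plus strand): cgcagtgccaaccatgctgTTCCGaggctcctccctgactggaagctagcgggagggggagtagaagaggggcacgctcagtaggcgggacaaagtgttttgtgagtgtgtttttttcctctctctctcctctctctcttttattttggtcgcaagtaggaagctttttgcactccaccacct
Spry2 (chr14:105896820-105897069, minus strand): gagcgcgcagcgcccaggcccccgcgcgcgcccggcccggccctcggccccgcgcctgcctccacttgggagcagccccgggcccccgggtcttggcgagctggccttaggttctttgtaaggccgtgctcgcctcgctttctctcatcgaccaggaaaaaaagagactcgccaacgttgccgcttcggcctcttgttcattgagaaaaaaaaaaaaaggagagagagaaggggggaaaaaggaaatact

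The Spred1 window held 1 ETS core, which begins 17 bases before the start, and the Spred2 window held 2, at 231 and 42 bases before it. The second core of Spred2 lies inside the GENCODE gene model and is not printed. The windows of Spry1, Spry2 and Spred3 held none. The Spred3 window lies wholly inside the GENCODE gene model, so it is not sequence upstream of that model. Thus 2 of 5 windows held the core, against 25.2% of the 32851 promoter windows in the table. An AP-1 site was found in 0 of 5 windows (6.75% of all windows) and a CArG box in 0 of 5 (1.47% of all windows). These matches describe letters in short windows and say nothing of binding.

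Spry4, a Sprouty that ERK signalling induces strongly in many cells, was measured in parental cells at 1212 (line #3), 619 (#4), 948 (#6), 1084 (#7), 983 (#9) and 1378 (#10) normalized counts. In resistant cells of the same lines it was at 3.09, 2.72, 1.20, 7.12, 0 and 3.54. Resistant and parental samples lay far apart, and 4 of the 6 resistant samples were at or under the floor of 3 reads. With each resistant library set no lower than its own 3 reads, Spry4 was at least 247-fold lower in resistant cells (ratio of means). On the log2(normalized count + 1) scale the fitted change was -8.27 (SE 0.41, adjusted p = 9.57e-11, limma with Benjamini-Hochberg adjustment over 19300 genes). A gene is said to rise or fall where its adjusted p was below 0.01 and its log2 fold change exceeded 1 in either direction. Over parental, resistant and P12 samples, the state accounted for 97.1% of the variance of Spry4 and the line for 1.64%.

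Spry2, the Sprouty best known for binding GRB2 and the ubiquitin ligase CBL, was at 2021 (#3), 2406 (#4), 2382 (#6), 1662 (#7), 1536 (#9) and 1170 (#10) normalized counts in parental cells. Resistant cells held 188, 99.1, 254, 400, 11.3 and 139. The groups did not overlap, and line #9 lay far below the other resistant samples. The log2 fold change was -3.89 (SE 0.58, adjusted p = 0.000256, limma). Within lines, resistant minus parental ranged from -2.05 log2 units in line #7 to -6.97 in line #9. Without line #9 the change was -3.27.

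Spry1, a close relative that restrains growth factor signalling in development, was at 909, 842, 837, 1177, 1061 and 877 normalized counts in parental cells of lines #3, #4, #6, #7, #9 and #10. The resistant values were 376, 162, 622, 314, 408 and 525. Every resistant sample lay below every parental sample. The log2 fold change of -1.35 (SE 0.41) did not pass the threshold (adjusted p = 0.0307, limma), and with parental and resistant samples alone in the fit it did (adjusted p = 0.00876), but not once that fit included the block for the line (adjusted p = 0.0185) or when the fit of all states did (0.0192). An antisense gene, Gm42922, overlaps Spry1; the library kit keeps strand.

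Spry3, a less studied Sprouty, differed from the other genes by line more than by state. Its parental values were 79.6, 22.7, 49.3, 15.4, 71.3 and 11.5 normalized counts and its resistant values 390, 301, 223, 14.2, 32.5 and 111. Counts were higher in the resistant cells of lines #3, #4, #6 and #10, by 2.15 to 3.67 log2 units, and lower in lines #7 and #9, by -0.10 and -1.11. The fitted change of 1.68 had an SE of 1.10 and did not pass (adjusted p = 0.333, limma). Differences between lines made up 55.2% of its variance and differences between states 19.8%, the reverse of the order in the other 6 genes, where the state held 58.3% to 97.1%. Spry3 lies on the unplaced scaffold GL456233.1 in GRCm38.

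Spred1, a Spred that binds neurofibromin, was at 2480, 1971, 2049, 3748, 4204 and 2497 normalized counts in parental cells and at 812, 835, 657, 1441, 818 and 1128 in resistant cells of lines #3, #4, #6, #7, #9 and #10. The groups did not overlap. Spred1 fell by 1.56 on the log2 scale (SE 0.25, adjusted p = 0.00042, limma), and the change was alike across lines, from -2.36 in #9 to -1.15 in #10.

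Spred2, the second broadly expressed Spred, was at 2834, 2675, 2910, 2987, 3859 and 3363 normalized counts in parental cells, the most even parental values of the family (14.0% coefficient of variation, n = 6 lines). Resistant cells held 321, 330, 865, 638, 74.3 and 328. As for Spry2, line #9 was the lowest resistant sample. Spred2 fell by 3.19 on the log2 scale (SE 0.37, adjusted p = 2.68e-05, limma).

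Spred3, the Spred whose domain for binding the receptor KIT is not functional, was at 916, 1114, 1227, 1831, 1309 and 738 normalized counts in parental cells and at 440, 401, 333, 200, 800 and 1019 in resistant cells. The groups overlapped, since the resistant cells of line #10 held more than its parental cells. The log2 fold change of -1.31 (SE 0.32) missed the threshold (adjusted p = 0.0105, limma). Without line #10 the change was -1.66 and passed (adjusted p = 0.00441), and with all lines it passed under a filter on a mean of at least 100 (adjusted p = 0.00834). The gene Ggn overlaps Spred3 on the opposite strand.

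**Figure D1:**
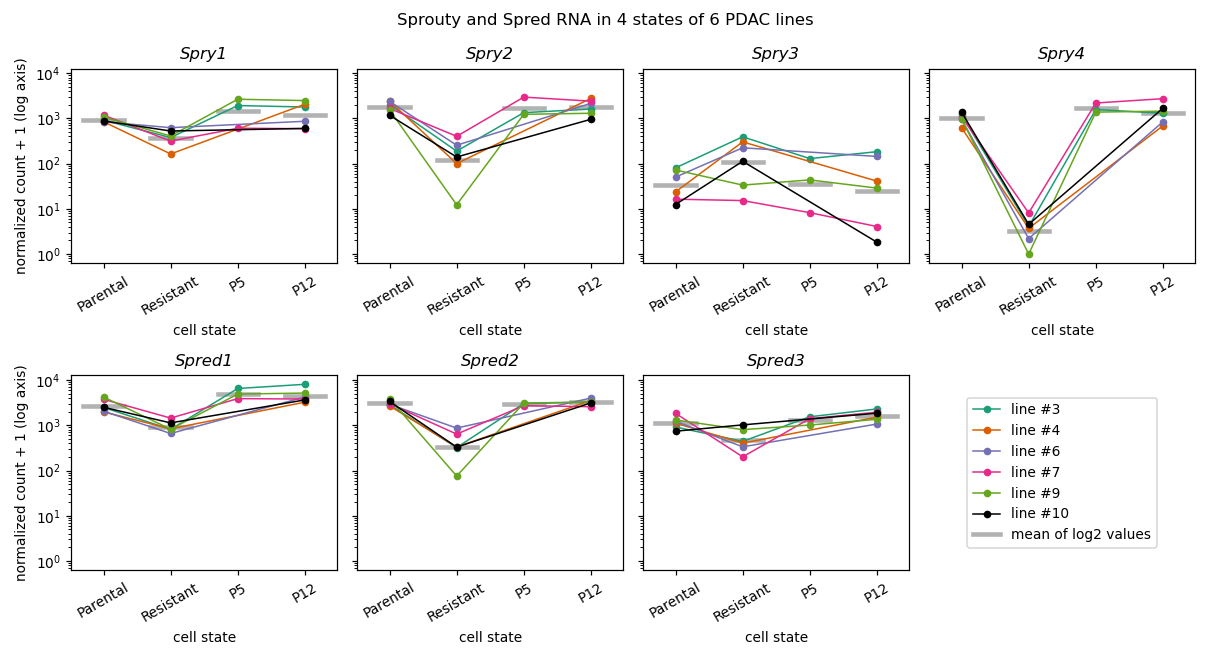
Normalized counts plus 1 (log axis) of the 7 genes in the parental, resistant, P5 and P12 states; points are single samples, coloured lines join the samples of 1 cell line (directly from resistant to P12 where a line has no P5 sample), and grey bars are means of the log2 values. Spry4 drops to between 0 and 7.12 normalized counts in the 6 resistant samples and is between 684 and 2724 in the 6 P12 samples, whereas Spry3 is spread by line in every state.

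Between resistant and parental cells, 4 of the 7 genes passed the threshold, all of them lower, against 5.3% of all genes tested and 2.73% lower. In 5 of the 7 (Spry1, Spry2, Spry4, Spred1 and Spred2) every resistant sample lay below every parental sample, a pattern found in this direction in 3.16% of all genes tested. The median log2 fold change of the 7 genes was -1.56, and that of all genes tested was -0.0049. When the fit included a block for the line, the same 4 genes passed, while the share of all genes called was 10.5%.

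The genes changed by unequal amounts. The 21 pairs of genes were compared by their change within each line (two-sided exact sign-flip permutation test, n = 6 lines), and 14 pairs differed at the smallest p that 6 lines allow (p = 0.03125, adjusted p = 0.0469 over 21 pairs). The change of Spry4 was more negative than that of each of the other 6 genes in 6 of 6 lines, also when its resistant values were set no lower than 3 reads. The change of Spry2 was more negative than that of Spry1 by 2.54 ± 1.75 log2 units, and Spred2 fell more than Spred1 by 1.63 ± 1.11 (SD, n = 6 lines, both in 6 of 6 lines). Spry2 and Spred2 did not differ beyond the spread between lines, with a mean difference of -0.69 ± 0.85 (SD, n = 6 lines, exact p = 0.1875), nor did Spry1 and Spred1 (0.21 ± 0.89, exact p = 0.594). The order of mean changes was therefore Spry4, then Spry2 and Spred2, then Spred1, Spry1 and Spred3, with Spry3 on the other side of 0, and in 7 pairs, 5 of them with Spred3, the difference missed the threshold.

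**Figure D2:**
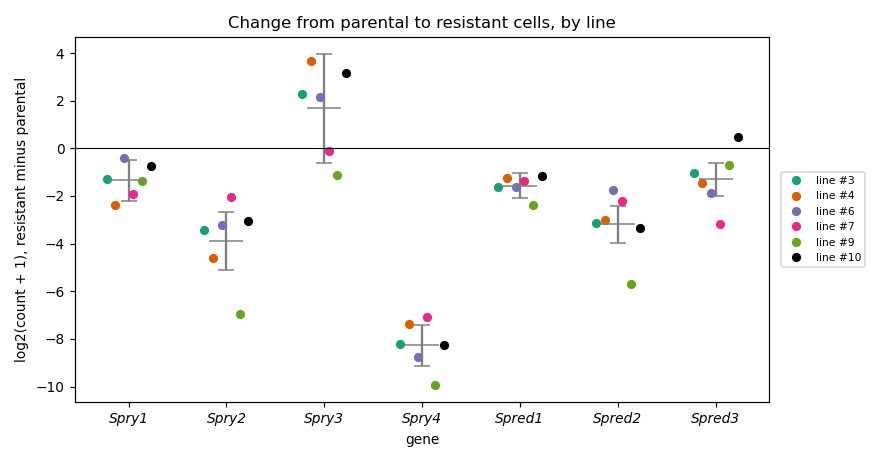
Change from parental to resistant cells in log2(normalized count + 1) for each of the 7 genes; coloured points are the 6 lines, and the grey dash and bar are the fitted mean and its 95% confidence interval from limma. Line #9 (light green) has the lowest point for Spry2, Spry3, Spred1 and Spred2, its Spry4 point rests on a count of 0 plus the pseudocount, and Spred3 is above 0 in line #10.

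Line #9 had the deepest fall for Spry2 (-6.97), Spred2 (-5.68) and Spred1 (-2.36), but the second smallest change for Spred3 (-0.71). Line #7 had the smallest change for Spry2 (-2.05) and the most negative for Spred3 (-3.19). For Spry4 the lines cannot be ranked, since most resistant values were at or under the floor. With these set to 3 reads, Spry4 ranged from -6.93 (#4) to -8.25 (#10). After the mean of each state was subtracted, Spry2 and Spred2 varied together (Pearson r = 0.80 over 21 samples) and Spred2 and Spred3 in opposite directions (r = -0.58). These correlations are descriptions of samples that share lines. Over the 17 samples of the other lines, r between Spry2 and Spred2 was 0.53, with state means that still included line #9.

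After 12 passages without trametinib the levels were again of the parental order. Spry4 was at 1293, 684, 841, 2724, 1442 and 1679 normalized counts in P12 cells of lines #3, #4, #6, #7, #9 and #10, all far above the resistant samples (log2 fold change 8.64 against resistant cells, SE 0.41, adjusted p = 6.3e-11, limma). Spry2 was at 1607, 2767, 2147, 2400, 1296 and 953 (3.84, SE 0.58, adjusted p = 0.00063). With resistant and P12 samples alone in the fit, Spry2 no longer passed (adjusted p = 0.0135).

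Spred2 was at 3242, 3527, 3991, 2573, 3284 and 3124 normalized counts in P12 cells and rose by 3.28 log2 units from resistant cells (SE 0.37, adjusted p = 3.02e-05, limma). Spred1 was at 8045, 3243, 4215, 3796, 5144 and 3634 and rose by 2.28 (SE 0.25, adjusted p = 1.91e-05). Both were above every resistant sample in all 6 lines.

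Spred3 was at 2294, 1512, 1063, 1944, 1355 and 1850 normalized counts in P12 cells, above every resistant sample, and rose by 1.81 log2 units (SE 0.32, adjusted p = 0.00242, limma). This call was lost without line #3 (adjusted p = 0.0234), #4 (0.0179) or #7 (0.0109), and in a fit of P12 and resistant samples alone without (0.022) or with the block for the line (0.0195). Spry1, at 1781, 2054, 862, 590, 2473 and 599, was higher than in resistant cells of the same line in 6 of 6 lines but missed the threshold (1.68, SE 0.41, adjusted p = 0.0176). Spry3, at 183, 40.0, 143, 3.07, 27.8 and 0.83, was lower than in resistant cells in 6 of 6 lines (-2.11, SE 1.10, adjusted p = 0.302), and its values in lines #7 and #10 were at or under the floor.

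Against resistant cells, 5 of the 7 genes thus passed in P12, all higher, where 2.13% of all genes tested were called and 1.28% were called higher. The same 5 genes did not overlap between the groups, as did 1.39% of all genes tested in this direction. Under the block in the fit of all states the 5 genes passed too, and 4.52% of all genes were called.

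P5 cells, analysed here for 3 lines, had largely the same levels. Spry4 was at 1569 (#3), 2185 (#7) and 1375 (#9) normalized counts, Spry2 at 1337, 2950 and 1229, and Spred2 at 3018, 2713 and 3084. Spred1 was at 6497, 3883 and 4898. All 4 genes lay above every resistant sample, as did 3.02% of all genes tested, and all 4 passed the threshold against resistant cells (log2 fold changes 9.00, 3.79, 3.12 and 2.44, adjusted p = 1.28e-09, 0.0088, 0.00113 and 0.000195, limma), where 0.378% of all genes tested were called and 0.29% were called higher.

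Spry1 (1920, 605 and 2646 in P5 of lines #3, #7 and #9) and Spred3 (1540, 1399 and 1012) did not pass (adjusted p = 0.0431 and 0.0554, limma), nor did Spry3 (128, 7.23 and 42.6, adjusted p = 0.617). The P5 call of Spry2 was lost without line #3 (adjusted p = 0.0671), #4 (0.031), #6 (0.0199), #7 (0.0437) or #10 (0.0237), and that of Spred2 without line #3 (0.0368). When the P5 samples with conflicting labels were left out, which leaves line #3 as the only P5 sample and assumes that it varies like the other groups, only Spry4 passed, as did 5 of all genes. The log2 fold changes were then 3.45 for Spry2, 2.82 for Spred1 and 3.16 for Spred2. In a fit of resistant and P5 samples alone that included the block, 0 of all genes passed, and Spry4 had a log2 fold change of 9.03 (adjusted p = 0.102). With the block in the fit of all states 0.611% of all genes were called in this comparison, and the same 4 genes of the family passed.

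Compared with parental cells, none of the 7 genes passed in P12 (0 of 7, limma, 1 of 7 at an unadjusted p under 0.05), where 0.114% of all genes tested were called, or 0.523% under the block. The fitted difference was 0.37 for Spry4 (95% confidence interval -0.48 to 1.23), -0.048 for Spry2 (-1.25 to 1.16) and 0.082 for Spred2 (-0.70 to 0.86). These intervals come from the fit without the line, whose spread is shared with the resistant samples, and leave room for differences of over 1 log2 unit in Spry4 and Spry2. P12 minus parental cells of the same line ranged from -0.33 to 0.53 log2 units for Spry2. For Spry4 it ranged from -0.17 to 1.33, highest in line #7. Within lines, the P12 increase of Spry2 made up between 90.3% and 126% of its fall, that of Spred2 between 90.3% and 126%, and that of Spry4 between 98.0% and 119%.

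Spred1 was the gene with an unadjusted p under 0.05. P12 cells had more Spred1 than parental cells of the same line in 6 of 6 lines, by 0.72 ± 0.59 log2 units (SD, n = 6 lines), least in line #7 (0.018) and most in line #3. The adjusted p was 0.174 (limma) and 0.0759 under the block. P5 cells were likewise higher in 3 of 3 lines, by 0.051 (#7), 0.22 (#9) and 1.39 (#3), and the adjusted p was 0.344. P5 and P12 cells share the parental samples in these comparisons.

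**Figure D3:**
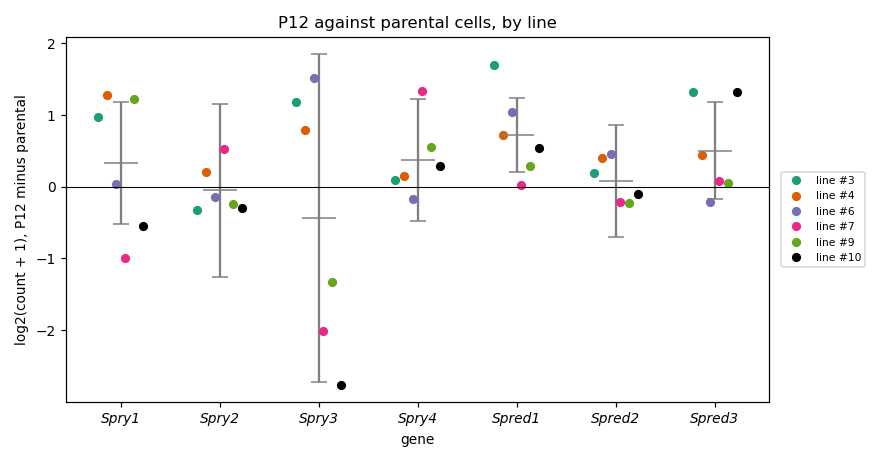
P12 minus parental cells in log2(normalized count + 1) for each of the 7 genes; coloured points are the 6 lines, and the grey dash and bar are the fitted mean and its 95% confidence interval from limma. Spred1 is above 0 in 6 of 6 lines, and Spry1 lies between -0.99 (line #7) and 1.29 (line #4).

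Spry1 was more spread after withdrawal than before treatment. Its parental values differed by 1.41-fold between the lowest and the highest line, and its P12 values by 4.19-fold. This ratio also grew for Spry4 (2.23 to 3.98) and Spry2 (2.06 to 2.90), and less for Spred1 (2.13 to 2.48) and Spred2 (1.44 to 1.55). It fell for Spred3 (2.48 to 2.16), and for Spry3 it grew with P12 values at or under the floor. Spread was not tested. P12 cells of lines #3, #4 and #9 held more Spry1 than parental cells, by 0.97, 1.29 and 1.22 log2 units, line #6 held 0.042 more, and lines #7 and #10 held less, by -0.99 and -0.55. In the 3 lines with both samples, P5 and P12 differed little, by -0.11 (#3), -0.035 (#7) and -0.098 (#9) for P12 minus P5. Lines #3 and #9 were high and line #7 was low in both sets of samples. The P5 samples of lines #7 and #9 have conflicting labels and may not be earlier than P12. Only line #3 is free of this conflict, so whether the order of the lines held over time was not tested.

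None of the 7 genes passed between P5 and parental cells (0 of 7, limma, 1 of 7 at an unadjusted p under 0.05, 0.0259% of all genes called). Between P12 and P5 no gene of the family and none of all genes tested passed (limma, 0% called, with 0 genes of the family and 130 of all genes at an unadjusted p under 0.05). Spred3 was higher in P12 than in P5 in 3 of 3 lines, by 0.42 to 0.58 log2 units.

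The genes most like each member across the 21 samples were found by Pearson correlation of log2 values over all genes tested. Spry4 was most like Etv4 (r = 0.98), Dusp6 (0.97) and Etv5 (0.96), Spry2 was most like Spred2 (0.96), Nrn1 (0.96) and Dusp6 (0.95), and Spred2 was most like Spry2, Dusp4 (0.96) and Dusp6 (0.95). Spred1 was most like Cd300lb (0.94), Etv4 (0.90) and Egr1 (0.90). Spry1 was most like Gm43820 (0.91), Haus7 (0.90) and Egr2 (0.87), Spred3 was most like Echdc3 (0.89), Man2a2 (0.88) and Jpx (0.87), and Spry3 was most like Fbn1 (0.87), Cldn1 (0.86) and Fabp3 (0.83). Lists of these genes rest on samples that share lines and states.

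Other genes of the pathway were described from 4 lists recalled from general knowledge, but chosen with earlier results of these data known. Their shares beside those of all genes are therefore descriptions and no independent test. Of 16 genes of ERK output and feedback outside the family, 10 fell in resistant cells, 0 rose and 6 did not pass, where 2.73% of all genes tested were called lower. The median log2 fold change was -2.83, against -0.0049 over all genes tested. The largest falls were those of Etv4 and Etv5, ETS transcription factors of the PEA3 group, at -10.46 and -8.09 log2 units, and of Dusp4, a nuclear MAP kinase phosphatase, at -7.80. In P12 cells 9 of the 16 were higher than in resistant cells, where 1.28% of all genes were called higher. In P5 cells 6 were (3 with P5 and resistant samples alone in the fit), against 0.29% of all genes. Against parental cells 0 of the 16 passed in either, but only 0.114% (P12) and 0.0259% (P5) of all genes did. P12 minus parental differences in the list ran from -2.09 (Epha4) to 3.01 (Etv1) log2 units without passing.

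Of 21 proteins known to bind or modify Sprouty or Spred, 1 rose in resistant cells, 0 fell and 20 did not pass (median 0.12), a share near the 5.3% called over all genes tested. Gab1, a docking protein that carries SHP2 to receptors, was at 227, 437, 595, 535, 661 and 535 normalized counts in parental cells of lines #3, #4, #6, #7, #9 and #10, and at 4741, 5178, 3500, 1295, 3070 and 3224 in resistant cells. It rose by 2.76 log2 units (SE 0.47, adjusted p = 0.000771, limma). The groups did not overlap. Gab1 is named because it passed the threshold, and the groups of Spry2 and Spry4 did not overlap either. That Gab1 moved against them in 6 of 6 lines follows from this and is no separate result.

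Of 10 RAS GTPase-activating proteins and other RAS inhibitors, 9 were tested, of which 1 fell, 0 rose and 8 did not pass (median 0.21). Rasa2, which speeds the return of RAS to its inactive form, was at 1787 to 2819 normalized counts in parental and 340 to 1150 in resistant cells (-2.02, SE 0.36, adjusted p = 0.0012, limma). Without line #3 none of this list passed. Of 13 receptor tyrosine kinases, 1 fell, 0 rose and 12 did not pass (median -0.33). With 1 call each, both lists are too short to be read against the 5.3% called over all genes tested. Fgfr4, a receptor for FGF19-type hormones, was at 1677, 1458, 766, 1013, 1.89 and 520 in parental cells and between 0 and 29.4 in resistant cells (-6.87, adjusted p = 0.00205). That call was lost without line #4, #6, #7 or #10 and in a fit of both states alone. Fgfr4 was between 0 and 16.6 in P12 cells too, while 5 of the 7 Sprouty and Spred genes had risen from resistant cells. Under the block for the line, 2 genes passed in each of these last lists, where 10.5% of all genes were called.

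**Figure D4:**
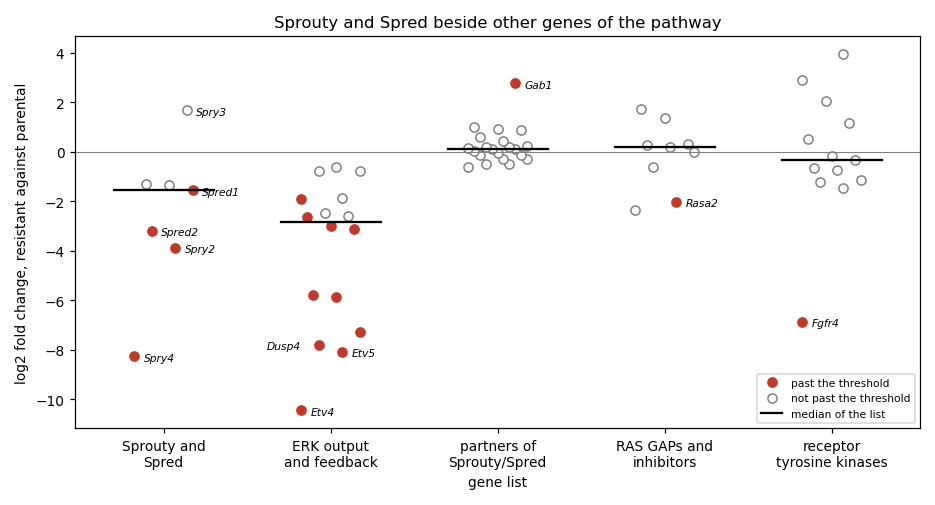
Log2 fold change of resistant against parental cells for the 7 Sprouty and Spred genes and for 4 lists of other genes of the pathway; each point is a gene, filled where it passed the threshold, and black lines are list medians. The Sprouty and Spred median is -1.56, that of ERK output and feedback genes -2.83, and the other 3 medians lie between -0.33 and 0.21.

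Markers of cell identity were also read, since their levels moved with the states. The summed level of 6 ductal epithelial markers ranged from 18221 to 252561 normalized counts in parental, from 1323 to 209869 in resistant and from 3900 to 200931 in P12 cells, and Epcam was listed at 0 in all samples of these 3 states. Of the 5 of them tested, Sox9 fell in resistant cells (-3.06, adjusted p = 0.0029, limma). Cdh1 had the largest difference and missed the threshold (-7.11, adjusted p = 0.0173), and it was lower in resistant cells in 6 of 6 lines. The sum of 6 fibroblast markers ranged from 95.4 to 10377 in parental, from 1875 to 503969 in resistant and from 224 to 124008 in P12 cells, and of the 5 tested only Dcn rose in resistant cells (adjusted p = 0.00116, limma). The sum of 5 mesenchymal markers ranged from 65814 to 250732 in parental and from 94086 to 338132 in resistant cells, where only Cdh2 rose (1.77, adjusted p = 0.000894, limma). In bulk RNA, fewer cells of a type and less RNA per cell cannot be told apart, and the part of these markers in the results was not tested. The fibroblast sum of resistant cells was lowest in line #7 (1875) and highest in line #9 (503969). In line #7, resistant minus parental cells was -7.06 log2 units for Spry4, -2.23 for Spred2 and -2.05 for Spry2. In line #9 the difference was -5.68 for Spred2 and -6.97 for Spry2, and its resistant cells held 0 normalized counts of Spry4. Spred3 had the reverse order, at -3.19 in line #7 and -0.71 in line #9. The other lines did not follow the order of the sums either. Line #10 had a sum of 22916 and a Spred2 difference of -3.35, and line #6 had 80380 and -1.75. Sums of 4 leukocyte markers stayed between 131 and 413, of 4 endothelial markers between 17.2 and 890, and of 3 acinar markers between 0 and 931.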

How the data were processed

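RNA sequencing of 21 samples (parental 6, resistant 6, P5 3, P12 6) was analysed. Per the labels, libraries were made with a stranded mRNA kit. The authors quantified transcripts with salmon (0.12), summed them to genes and normalized the counts with DESeq2 (1.18), on mm10 per the submitters' notes. The deposited table holds these normalized counts (signal), and raw counts could not be recovered, since 52.3% to 71.1% of low values fell on whole reads. The spacing of low values gave the estimate of depth. No sample was left out. The study names more than one sequencer model without assigning samples, so no comparison within sequencing batches was made.

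Log2 values were taken after adding a pseudocount of 1. The 19300 genes that reached 10 in 3 or more samples were tested with limma 3.58.1 (R 4.3.3, eBayes with a trend) in one fit of the 4 states, with Benjamini-Hochberg adjustment, a call needing an adjusted p under 0.01 and a change of over 1 log2 unit. P-values rest on 1 library per line and state. On simulated data with 200 changed genes among 19300, 156 were called, with 1 false call. The planted changes were of 3 log2 units or more, the noise was independent between samples, and the largest spreads were capped. The simulation therefore does not cover smaller changes or samples that share lines. Pairs of genes were compared with exact sign-flip permutation tests (scipy 1.17.1 and numpy 2.4.6 under Python 3.11.15; figures with matplotlib 3.10.9).

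Samples with the same number come from the same cell line, and so are paired by design. Their deviations from the state means correlated with a mean r of 0.24 (resistant and parental), 0.46 (P12 and resistant), 0.32 (P12 and parental), 0.52 (P5 and resistant), 0.28 (P5 and parental) and 0.78 (P12 and P5).

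Results were recomputed with a pseudocount of 0.5 or 8, no filter or a mean of at least 100, upper-quartile rescaling, the cell line as a block, no trend, an adjusted p below 0.05, no fold threshold, the compared states alone, and each line left out. The compared states alone with the block, and leaving out P5 of lines #7 and #9, were chosen after seeing the data. Named genes were the 7 members, up to 3 rises and 3 falls per list past the threshold between resistant and parental cells, and the 3 genes most correlated with each member. The members and lists were chosen with earlier results of these data known. Gene positions are from GENCODE M21 (GRCm38). One further allele of the mice and 1 gene of the lists are not reported here.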

Additional observations from a re-analysis of the deposited data

How the results depend on the processing

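The calls in resistant against parental cells were the steadiest: 4 genes of the family passed, or 4 to 5 with 1 line left out. In P12 against resistant cells 5 passed, 4 to 5 with 1 line left out and 3 with only the compared states fitted. In P5 against resistant cells 4 passed, 2 to 4 with 1 line left out (2 without line #3), 1 with the compared states alone, 1 with P5 of lines #7 and #9 left out, and 0 with the compared states and the cell line as a block; fewer samples entered each of these fits. In the other comparisons 0 passed with any line left out. The replicate block in the fit of all 4 states (Spry4 -8.27, adjusted p = 1.09e-09, limma) changed no call in the family. It moved the number of all genes called from 1023 to 2017 in resistant against parental cells, from 412 to 872 in P12 and from 73 to 118 in P5 against resistant cells, and from 22 to 101 in P12 against parental cells. An adjusted p below 0.05 gave 2190, 947, 376 and 116 in the same order and 9 in place of 5 in P5 against parental cells. The compared states alone gave 103 in P12 and 14 in P5 against resistant cells, 12 in P12 and 1 in P5 against parental cells, and 1 in P12 against P5. With the block added to the compared states these were 3 in P12 and 0 in P5 against parental cells, 0 in P5 against resistant cells and 1 in P12 against P5. A filter on a mean of 100 gave 5 in P12 and 3 in P5 against parental cells, and leaving out P5 of lines #7 and #9 gave 5 in P5 against resistant and 1 in P5 against parental cells. With 1 line left out the counts ranged from 450 to 1237, 132 to 467, 23 to 48, 4 to 68 and 1 to 5 (resistant against parental, P12 and P5 against resistant, P12 and P5 against parental cells).

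Only log2 differences that had not passed changed sign. With the block, Spry2 and Spred2 turned to 0.046 and 0.095 in P5 against parental cells, and Spry2, Spred1 and Spred2 to -0.094, 0.074 and -0.012 in P12 against P5. With the block in the compared states alone, Spry3 and Spred3 turned to -0.35 and -0.0038 in P5 against parental cells, and Spry4 and Spred1 to 0.036 and 0.12 in P12 against P5. Upper-quartile rescaling turned Spry2 to 0.0013 in P12 against parental cells, and leaving out P5 of lines #7 and #9 turned Spry3 to 0.27 in P5 against resistant cells. With 1 line left out, Spry2 ranged from -0.16 to 0.0084 in P12 against parental cells, from -0.52 to 0.11 in P5 against parental cells and from -0.10 to 0.35 in P12 against P5; Spry3 from -0.83 to 0.032, from -0.57 to 0.96 and from -1.08 to 0.22 in the same order; and Spred3 from -0.0045 to 0.40 in P5 against parental cells. Among the 16 genes of ERK output, 3 in place of 6 passed in P5 against resistant cells with the compared states alone or with P5 of lines #7 and #9 left out, and 0 with the compared states and the block. Depth limits Spry4 in resistant cells, where its fitted fall depends on the pseudocount (-6.56 with 8 and -8.60 with 0.5), and Spry3 in P12.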

Other observations

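Gm43820, the gene most like Spry1 across the samples, starts 8 bases after the end of Spry1 on the same strand. Its level was 2.72 to 5.38 normalized counts in parental, 0 to 5.99 in resistant and 3.33 to 19.3 in P12 cells, near the floor of 3 reads in many samples. Whether its reads belong to a longer Spry1 transcript was not tested.

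Cd300lb, known as a receptor of myeloid cells, was the gene most like Spred1. It was at 9.15 to 191.5 normalized counts in parental cells, at 0 to 6.20 in resistant cells, at 514.9 (#3), 168 (#7) and 445 (#9) in P5 cells and at 70.9 to 795 in P12 cells, while sums of 4 leukocyte markers stayed between 131 and 413 in all samples.

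Egr2, an immediate-early transcription factor, was among the 3 genes most like Spry1. P12 cells of lines #7 and #10, the lines with less Spry1 than their parental cells, held 6.22 and 23.0 normalized counts of Egr2. Parental cells of these lines held 7.42 and 6.52, so in line #10 Egr2 was higher in P12 than in parental cells, unlike Spry1. P12 cells of the other 4 lines held 73.0 to 154. Egr2 was picked for its correlation with Spry1 over these same samples, so a likeness between them is no separate result.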
